A study of Mus musculus with 9 samples.

Results

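The cytosolic chaperonin CCT, also called TRiC, is the part of the B cell transcriptome described here. Its members are the 8 subunit genes that the deposited table lists under the symbols *Tcp1* (also named *Cct1*), *Cct2*, *Cct3*, *Cct4*, *Cct5*, *Cct6a*, *Cct7* and *Cct8*, chosen by symbol out of 17596 genes in all, and all 8 had a row. They were measured by RNA sequencing in 9 libraries of primary B cells. Control B cells came from *Mb1*Cre mice, in which Cre recombinase is made in B lineage cells from the *Mb1* locus, and *Mct1*-deficient B cells came from *Mct1* f/f *Mb1*Cre mice, which carry the same Cre together with floxed alleles of *Mct1*, the gene of a lactate and pyruvate transporter. The animals were 6 to 8 weeks old on a B6 background. On day 0 the cells were naïve, with 2 control and 2 *Mct1*-deficient libraries, and on day 3 they had been cultured with LPS at 10 μg/ml and IL-4 at 50 ng/ml, with 2 control and 3 *Mct1*-deficient libraries. Since Cre was carried by both genotypes, its presence did not differ between them, and no library of cells cultured without the stimuli was analysed here.

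CCT is a barrel of a pair of stacked rings, and each ring holds 1 copy of every one of the 8 different but related subunits. A protein chain enters the cavity, and the lid formed by the subunits closes over it as ATP is hydrolysed. Actin and tubulin are its best known substrates, WD40 proteins such as the cell cycle activator CDC20 are others, and the complex is found in the cytosol of nearly every cell type, with prefoldin and phosducin-like proteins working alongside it. Naïve B cells are small and quiescent, whereas LPS and IL-4 drive them to enlarge and divide.

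By the RefSeq gene table of GRCm38.p6, the 8 genes lie on 8 chromosomes and are therefore not a cluster. *Tcp1* is at chr17:12916329-12925067, *Cct2* at chr10:117050997-117063852, *Cct3* at chr3:88297135-88321766 and *Cct4* at chr11:22990593-23003336. *Cct5* is at chr15:31590800-31601846, *Cct6a* at chr5:129787356-129846443, *Cct7* at chr6:85451505-85468477 and *Cct8* at chr16:87483325-87495869. Each value is for the whole gene, so no exon or isoform was resolved. *Tcp1* overlaps *Mrpl18* by 1459 bases and *Acat3* by 1238 bases, *Cct7* overlaps *Pradc1* by 483 bases, *Cct8* overlaps *Usp16* by 191 bases and *Cct6a* overlaps *Psph* by 88 bases. Whether counting used the strand or shared reads with the pseudogenes *Cct3-ps1* and *Tcp1-ps1* on chromosome 4 is not given in the sources used here. The values of these members are therefore less certain. *Cct2*, *Cct4* and *Cct5* overlap no other gene of that RefSeq table, but their pseudogenes were not looked for.

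The promoters of the members were searched for short motifs. RefSeq promoter sequence of GRCm38.p6 was found for 7 of the 8 members, and the 250 bases before the most upstream start of each gene were searched on both strands. The CCAAT box (CCAAT) was present in 4 of these 7 windows, those of *Tcp1*, *Cct3*, *Cct6a* and *Cct7*, against 34.5% of all 27025 RefSeq windows of that length and 38.0% of those of the tested genes. The GC box (GGGCGG) was present in 7 of 7, against 33.0% of all windows and 59.0% of those of the tested genes. The stretches below were chosen because *Cct7* and *Cct3* hold CCAAT boxes beside GC boxes, while *Cct2* and *Cct8* hold GC boxes with no CCAAT box. They read 5′ to 3′ on the strand of the gene, leave out bases that lie in an exon of the GENCODE M21 annotation, and have the CCAAT boxes (CCAAT or ATTGG) and GC boxes (GGGCGG or CCGCCC) in capitals.
*Cct7*, chr6:85451305-85451504, plus strand: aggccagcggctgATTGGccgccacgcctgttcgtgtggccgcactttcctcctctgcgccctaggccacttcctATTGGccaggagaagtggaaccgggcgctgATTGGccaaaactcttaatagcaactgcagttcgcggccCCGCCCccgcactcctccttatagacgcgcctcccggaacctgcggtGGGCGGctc
*Cct3*, chr3:88297000-88297115, plus strand: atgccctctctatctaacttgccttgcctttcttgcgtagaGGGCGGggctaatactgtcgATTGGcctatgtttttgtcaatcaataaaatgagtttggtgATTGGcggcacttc
*Cct2*, chr10:117063853-117064052, minus strand: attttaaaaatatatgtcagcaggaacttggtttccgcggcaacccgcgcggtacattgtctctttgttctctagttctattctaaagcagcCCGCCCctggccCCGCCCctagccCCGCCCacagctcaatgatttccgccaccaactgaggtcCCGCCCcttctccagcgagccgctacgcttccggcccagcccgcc
*Cct8*, chr16:87495874-87495998, minus strand: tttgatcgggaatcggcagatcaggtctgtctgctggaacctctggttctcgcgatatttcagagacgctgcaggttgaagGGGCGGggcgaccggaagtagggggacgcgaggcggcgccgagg

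The *Cct7* stretch holds 3 CCAAT boxes, at 187, 125 and 95 bases before the start, and 2 GC boxes, and the *Cct2* stretch holds 4 GC boxes. The E-box (CACGTG) and the TATA box (TATAAA) were in none of the 7 windows, against 6.04% and 13.0% of all windows and 8.71% and 6.27% of those of the tested genes. Of the heat shock element arrangements, GAANNTTC was in 0 and TTCNNGAA in 1, that of *Cct5*, against 6.79% and 7.18% of all windows and 5.08% and 6.14% of those of the tested genes. The ETS site (CCGGAAG) was in 2, those of *Cct2* and *Cct8*, against 7.07% of all windows and 15.4% of those of the tested genes. In 11 windows of the proteasome core genes described below, the CCAAT box was in 6 and the GC box in 5. A match says only that these letters are in the window, and no match says only that they are not. Any part of these motifs in the changes of the members was not tested.

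The floxed gene was examined first, as a check of the labels. *Mct1*, listed as *Slc16a1*, was at 4.33 and 3.80 FPKM (fragments per kilobase of transcript, relative to the mapped fragments of the library) in the control libraries on day 0 and at 3.71 and 4.06 FPKM in the *Mct1*-deficient libraries, so the genotypes overlapped. On day 3 it was at 22.58 and 22.95 FPKM in the control libraries and at 10.82, 9.81 and 9.50 FPKM in the *Mct1*-deficient libraries, with no overlap. The difference on day 3 was -1.11 ± 0.07 on the log2(FPKM + 1) scale (SE, limma, adjusted p = 9.07e-06). The day 3 labels were therefore borne out by the gene, while for the naïve libraries the label is the only evidence of the genotype.

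All 8 CCT subunit transcripts were abundant in naïve B cells and more abundant after activation, by 2.06-fold (*Cct4*) to 3.33-fold (*Tcp1*) in control B cells. *Tcp1*, subunit 1 (alpha), was at 96.45 and 94.42 FPKM in the naïve control libraries and at 318.84 and 316.59 FPKM on day 3. In *Mct1*-deficient B cells it was at 95.36 and 98.32 FPKM on day 0 and at 307.98, 301.93 and 310.62 FPKM on day 3. The days did not overlap in either genotype, and the rise was 1.73 ± 0.04 in control and 1.65 ± 0.04 in *Mct1*-deficient B cells on the log2 scale (SE, limma, adjusted p = 1.68e-11 and 1.09e-11). *Tcp1* had the largest rise of the 8 in both genotypes, under the reported settings and under all 22 alternatives. Many of these could not change the order, since other fold limits and filters leave the fold changes as they are. The order could change with quantile normalization and with each library left out, and *Tcp1* still rose most.

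*Cct6a*, subunit 6 (zeta), had the next largest rise. It was at 75.98 and 71.37 FPKM in control libraries on day 0 and at 194.42 and 195.76 FPKM on day 3. In *Mct1*-deficient libraries it was at 72.37 and 75.04 FPKM and then at 197.13, 194.92 and 202.93 FPKM. Its values on day 3 were above those on day 0 in every library, with a log2 change of 1.39 ± 0.04 in control and 1.42 ± 0.04 in *Mct1*-deficient B cells. *Psph*, whose 5′ end overlaps that of *Cct6a*, also rose, with a log2 change of 2.08 ± 0.07 in control B cells, and *Mrpl18*, which overlaps *Tcp1*, rose by 0.86 ± 0.08. In the same cells *Pradc1*, which overlaps *Cct7*, rose by 1.13 ± 0.10, and *Usp16*, which overlaps *Cct8*, was not called (0.08 ± 0.07). *Acat3*, the other neighbour of *Tcp1*, was at 0.74 and 0.76 FPKM in naïve control libraries. It was at 0.58 and 0.62 FPKM in activated control libraries and was not tested.

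*Cct7*, subunit 7 (eta), was the least abundant of the 8. It was at 58.51 and 53.49 FPKM in naïve control libraries, at 53.72 and 59.03 FPKM in naïve *Mct1*-deficient libraries, at 139.71 and 136.55 FPKM in activated control libraries and at 135.62, 135.55 and 141.26 FPKM in activated *Mct1*-deficient libraries. The naïve and activated values were separated by a wide gap and the genotypes overlapped on both days. Its log2 change was 1.29 ± 0.06 in control and 1.27 ± 0.05 in *Mct1*-deficient B cells.

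*Cct3*, subunit 3 (gamma), was at 72.80 and 71.42 FPKM in control and at 67.43 and 75.10 FPKM in *Mct1*-deficient libraries on day 0, and at 171.72 and 176.67 FPKM and at 170.69, 173.12 and 178.27 FPKM on day 3. The 2 naïve *Mct1*-deficient libraries lay on either side of the control ones. The log2 change was 1.26 ± 0.05 and 1.28 ± 0.05 in the respective genotypes.

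*Cct8*, subunit 8 (theta), was at 77.49 and 69.74 FPKM in control and at 77.38 and 79.00 FPKM in *Mct1*-deficient libraries on day 0, and at 164.62 and 165.54 FPKM and at 166.98, 156.84 and 158.27 FPKM on day 3. The second naïve control library was the low one of the 4 on day 0. Its log2 change was 1.16 ± 0.05 in control and 1.03 ± 0.05 in *Mct1*-deficient B cells, the widest gap between genotypes among the 8, and this difference did not pass the test (interaction -0.13, limma, adjusted p = 0.308).

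*Cct5*, subunit 5 (epsilon), was at 121.52 and 121.41 FPKM in control and at 120.71 and 123.57 FPKM in *Mct1*-deficient libraries on day 0, and at 274.08 and 264.91 FPKM and at 269.78, 272.58 and 271.27 FPKM on day 3. Its log2 change was nearly the same in both genotypes, 1.14 ± 0.04 and 1.15 ± 0.04. *Cct2*, subunit 2 (beta), was the most abundant in naïve cells, at 135.57 and 131.95 FPKM in control and 128.03 and 134.97 FPKM in *Mct1*-deficient libraries, and reached 295.33 and 290.33 FPKM and 289.92, 279.52 and 283.85 FPKM on day 3. Its log2 change was 1.12 ± 0.04 and 1.11 ± 0.04.

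*Cct4*, subunit 4 (delta), had the smallest rise in control B cells. It was at 94.68 and 91.50 FPKM in control and at 93.15 and 97.17 FPKM in *Mct1*-deficient libraries on day 0, and at 194.00 and 189.99 FPKM and at 197.59, 201.36 and 206.27 FPKM on day 3. The log2 change was 1.04 ± 0.04 in control and 1.08 ± 0.04 in *Mct1*-deficient B cells, so that even the smallest rise exceeded the spread between libraries.

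**Figure D1:**
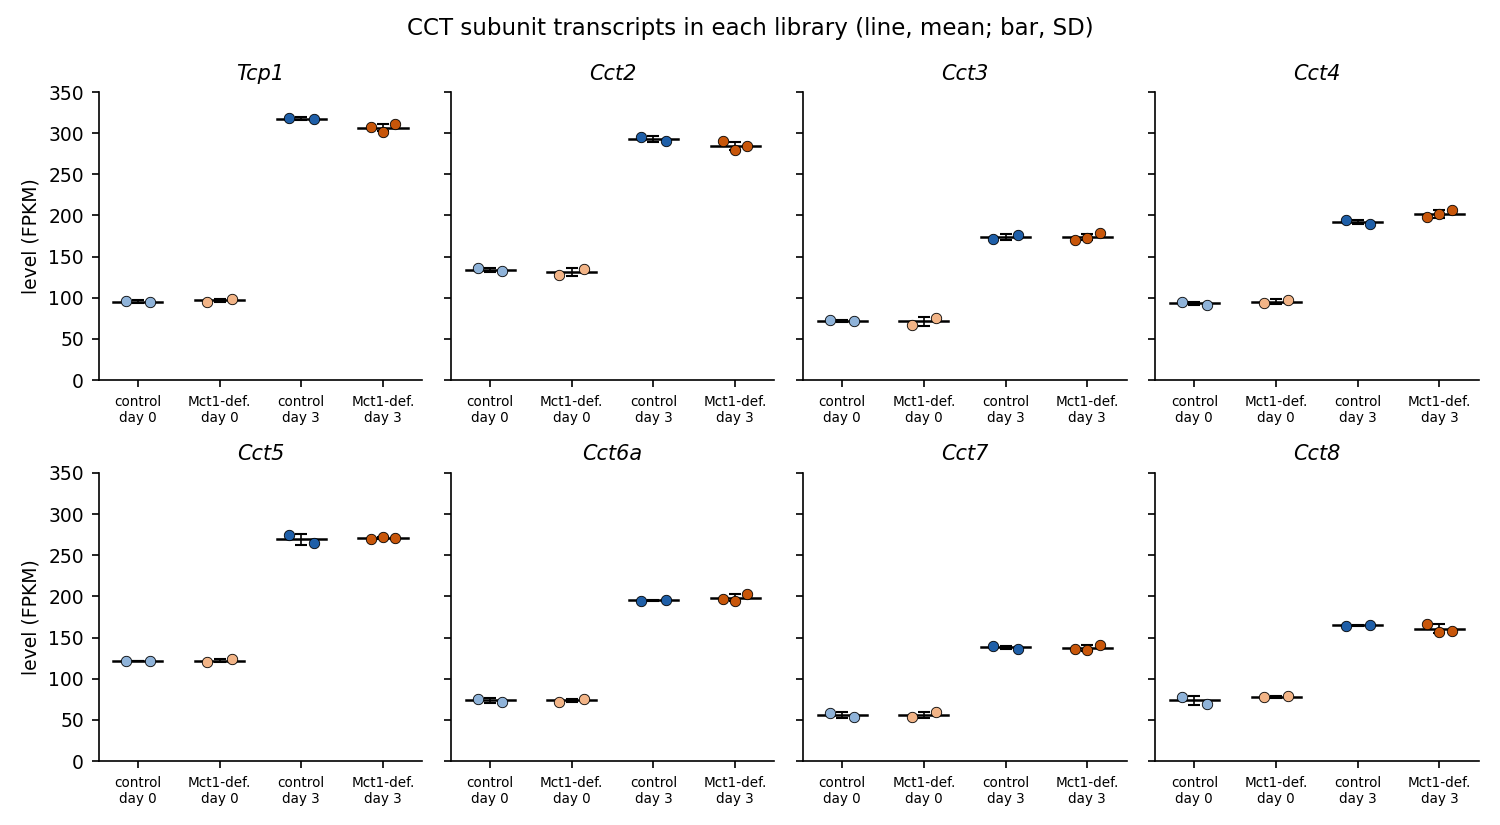
Level of each CCT subunit transcript in FPKM (linear axis from 0) in the 9 libraries, with points for libraries, lines for group means and bars for the SD (n = 2, 2, 2 and 3). For all 8 genes the day 3 libraries lie above the day 0 libraries, from 53.49 to 135.57 FPKM on day 0 and from 135.55 to 318.84 FPKM on day 3.

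The 8 subunits together summed to 733.0 and 705.3 FPKM in naïve control libraries and to 708.15 and 742.2 FPKM in naïve *Mct1*-deficient libraries. On day 3 they summed to 1752.7 and 1736.3 FPKM in control libraries and to 1735.7, 1715.8 and 1752.7 FPKM in *Mct1*-deficient libraries. The sum was 2.43 ± 0.07 times as high on day 3 in control and 2.39 ± 0.08 times as high in *Mct1*-deficient B cells (propagated SD). Since the FPKM of all genes summed to between 477079 and 491459 on day 0 and between 547355 and 563586 on day 3, the subunits took 0.144% to 0.154% of the total on day 0 and 0.308% to 0.320% on day 3.

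All 8 subunits were called higher (limma, adjusted p under 0.05 and a log2 change above 0.5) in both genotypes, where 24.8% of the 10823 tested genes were called higher in control and 23.4% in *Mct1*-deficient B cells and 33.0% and 33.2% lower. The median log2 change of the 8 was 1.21 in both genotypes, against -0.12 in control and -0.14 in *Mct1*-deficient B cells over all tested genes. In control B cells, *Cct4* rose more than 88.4% of the tested genes and *Tcp1* more than 95.3%. Of all genes called between the days, 42.9% were higher in control B cells, and this share was 32.0% when libraries were scaled to the same total, 55.4% with median-of-ratios scaling and 51.3% with quantile normalization. Under the same scalings the 8 subunits remained higher, with medians of 1.01, 1.42 and 1.03.

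The libraries of the 2 days also differed in other ways that move with these values. *Ddx3y*, a Y-linked gene, was at 0.24 and 0.02 FPKM in the naïve control libraries and at 31.13 and 0.20 FPKM in the naïve *Mct1*-deficient libraries, but at 14.69 to 16.91 FPKM in all 5 libraries of day 3. Activation and sex therefore cannot be told apart in control B cells. In *Mct1*-deficient B cells, without the naïve library that lacked *Ddx3y*, all 8 subunits were called higher, by 1.04 to 1.68 on the log2 scale, in a fit that takes the lone naïve library to vary like the other groups. In the same fit the Y-linked *Ddx3y* (-0.90) and *Kdm5d* (-0.71) were lower on day 3. The Y-linked *Eif2s3y* and *Uty* were at 59.61 and 9.90 FPKM in the lone naïve library. On day 3 they were at 44.56 to 49.87 FPKM and at 6.78 to 7.38 FPKM in *Mct1*-deficient libraries. The cause of these differences was not tested.

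The B cell markers *Cd79a*, *Cd79b*, *Ms4a1*, *Cd22* and *Pax5* were present in every library. Their summed level was 3800, 4012, 3597 and 3890 FPKM in the naïve libraries (control, then *Mct1*-deficient) and 1813, 1799, 1893, 1818 and 1840 FPKM in the activated ones, with *Cd79a* the most abundant. The 6 myeloid markers, led by *Lyz2*, summed to 996.6, 1185, 1766 and 1071 FPKM on day 0 and to 16.67, 14.85, 24.07, 22.16 and 25.44 FPKM on day 3. The naïve libraries thus held transcripts of other cells that were almost gone on day 3.

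The 6 erythroid markers, led by *Hba-a1*, summed to 143.6, 125.2, 231.1 and 142.3 FPKM on day 0 and to 4.34 to 7.95 FPKM on day 3, when *Hbb-bs* was listed at 0 in all 5 libraries. Nearly all of the day 3 sum was *Hbb-bt*, at 8.27, 11.66, 19.60 and 7.30 FPKM on day 0 and at 7.69, 6.16, 4.31, 6.97 and 4.72 FPKM on day 3, which was not called in control B cells (-0.46, limma, adjusted p = 0.229) and was called lower in *Mct1*-deficient B cells (-1.07, limma, adjusted p = 0.00760), though not without the first naïve library of that genotype (-0.41). The 6 T and NK cell markers, led by *Cd4*, summed to 36.59 to 42.23 FPKM on day 0 and to 1.97 to 2.10 FPKM on day 3. In bulk samples fewer cells of a type and less RNA per cell cannot be told apart, and the part of sex and of these other cells in the rise of the CCT subunits was not tested.

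The order of the levels also changed between the days. FPKM are given per length, so levels of different genes can be set side by side, but this does not remove reads shared between genes. For *Tcp1*, any reads shared with an overlapping gene or a pseudogene could not be told apart. In naïve control B cells the order from high to low was *Cct2* (133.8 FPKM ± 2.56, SD, n = 2), *Cct5* (121.5 ± 0.0778), *Tcp1* (95.44 ± 1.44), *Cct4* (93.09 ± 2.25), *Cct6a* (73.68 ± 3.26), *Cct8* (73.61 ± 5.48), *Cct3* (72.11 ± 0.976) and *Cct7* (56.0 ± 3.55). The ranges of *Tcp1* and *Cct4* overlapped, as did those of *Cct6a* and *Cct8* and those of *Cct8* and *Cct3*, so these neighbours did not differ beyond their spread. Naïve *Mct1*-deficient B cells had the same order but for *Cct8* (78.19 ± 1.15, n = 2), which lay above *Cct6a* (73.71 ± 1.89) with no overlap.

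In activated control B cells the order was *Tcp1* (317.7 FPKM ± 1.59, SD, n = 2), *Cct2* (292.8 ± 3.54), *Cct5* (269.5 ± 6.48), *Cct6a* (195.1 ± 0.948), *Cct4* (192.0 ± 2.84), *Cct3* (174.2 ± 3.50), *Cct8* (165.1 ± 0.651) and *Cct7* (138.1 ± 2.23), with no overlap between neighbours. Activated *Mct1*-deficient B cells had the same order but for *Cct4* (201.7 ± 4.35, n = 3) and *Cct6a* (198.3 ± 4.14), which changed places with overlapping ranges. Between the days *Tcp1* moved from the third place to the first, and *Cct6a* moved above *Cct4* in control B cells.

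As a share of the summed FPKM of the 8 subunits, *Tcp1* held 13.2% to 13.5% in the 4 naïve libraries and 17.6% to 18.2% in the 5 activated libraries. *Cct6a* went from between 10.1% and 10.4% to between 11.1% and 11.6%. *Cct2* went from between 18.1% and 18.7% to between 16.2% and 16.8%, *Cct4* from between 12.9% and 13.2% to between 10.9% and 11.8%, *Cct5* from between 16.6% and 17.2% to between 15.3% and 15.9%, and *Cct8* from between 9.89% and 10.9% to between 9.03% and 9.62%.

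The days did not overlap in the share of these 6 subunits, and they overlapped in the shares of *Cct3* and *Cct7*, which stayed near 10.0% and 7.9% of the sum in control B cells on both days. The ratio of the most to the least abundant subunit was 2.29 to 2.47 on day 0 and 2.20 to 2.32 on day 3, so the overall spread among the subunits was similar while its members changed places. These shares were looked at after the values were seen and were not tested. They do not depend on how the libraries are scaled to each other, except by quantile normalization.

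**Figure D2:**
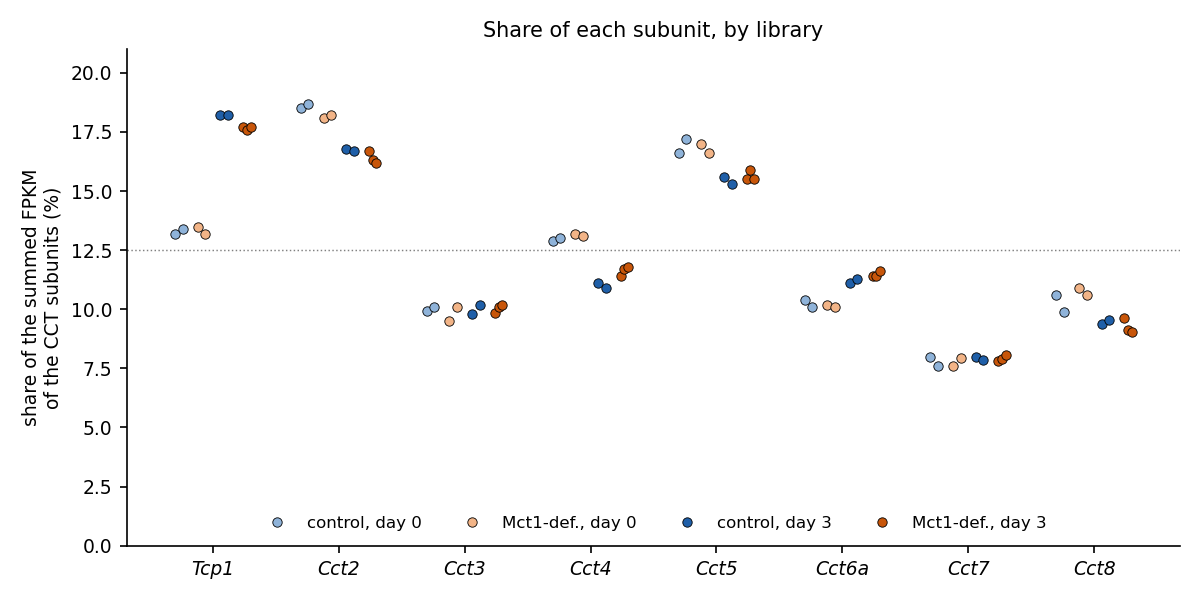
Share of each subunit in the summed FPKM of the 8 CCT subunits (percent, linear axis from 0), with 1 point per library and a dotted line at the equal share of 12.5%. *Tcp1* is at 13.2% to 13.5% in naïve and at 17.6% to 18.2% in activated libraries of both genotypes, while *Cct2*, *Cct4*, *Cct5* and *Cct8* are lower in the activated ones.

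Whether the CCT subunits depended on *Mct1* was examined by comparing the genotypes on each day. None of the 8 was called between the genotypes on day 3, where 2.42% of the tested genes were called, nor did any reach an adjusted p below 0.05 once the fold limit was dropped, as 15.2% of the tested genes did. None had an unadjusted p under 0.05. *Tcp1* was at 0.966, *Cct2* at 0.971, *Cct3* at 0.999, *Cct4* at 1.05, *Cct5* at 1.01, *Cct6a* at 1.02, *Cct7* at 0.995 and *Cct8* at 0.973 of the control mean. Their summed level in *Mct1*-deficient B cells was 0.994 ± 0.0125 of that in control B cells (propagated SD).

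The 2 genotypes did not overlap on day 3 for 3 of the 8 subunits, with *Tcp1* and *Cct2* lower and *Cct4* higher in all 3 *Mct1*-deficient libraries. Such a lack of overlap was found for 47.1% of the tested genes, and 3 of 8 is 37.5%. The largest of these differences was that of *Cct4*, at 0.07 ± 0.04 on the log2 scale (SE, limma, adjusted p = 0.267), and *Tcp1* differed by -0.05 ± 0.04 (adjusted p = 0.403).

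Over the 8 subunits the 95% intervals of the difference on day 3 lay within -0.15 and 0.16 on the log2 scale. For *Tcp1* the interval went from 8.61% lower to 2.07% higher, and for *Cct4* from 1.08% lower to 11.5% higher, both on the FPKM + 1 scale. Differences within these bounds could not be told from the spread between libraries with 2 and 3 libraries.

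On day 0 the 8 subunits of both genotypes overlapped in every case, and 0 of 8 were called, where 0.277% of the tested genes were called. The largest difference was that of *Cct8*, at 0.09 on the log2 scale (limma, adjusted p = 0.572), and the 95% intervals lay within -0.14 and 0.21. By the interaction test of the effect of activation between the genotypes, 0 of 8 were called, against 3.23% of the tested genes, and 0 of 8 had an adjusted p under 0.05 (limma), against 9.42%, with 95% intervals within -0.29 and 0.18. No subunit had an unadjusted p under 0.05 in these comparisons either. *Slc16a1*, in contrast, had an interaction of -1.06 (limma, adjusted p = 4.24e-04).

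**Figure D3:**
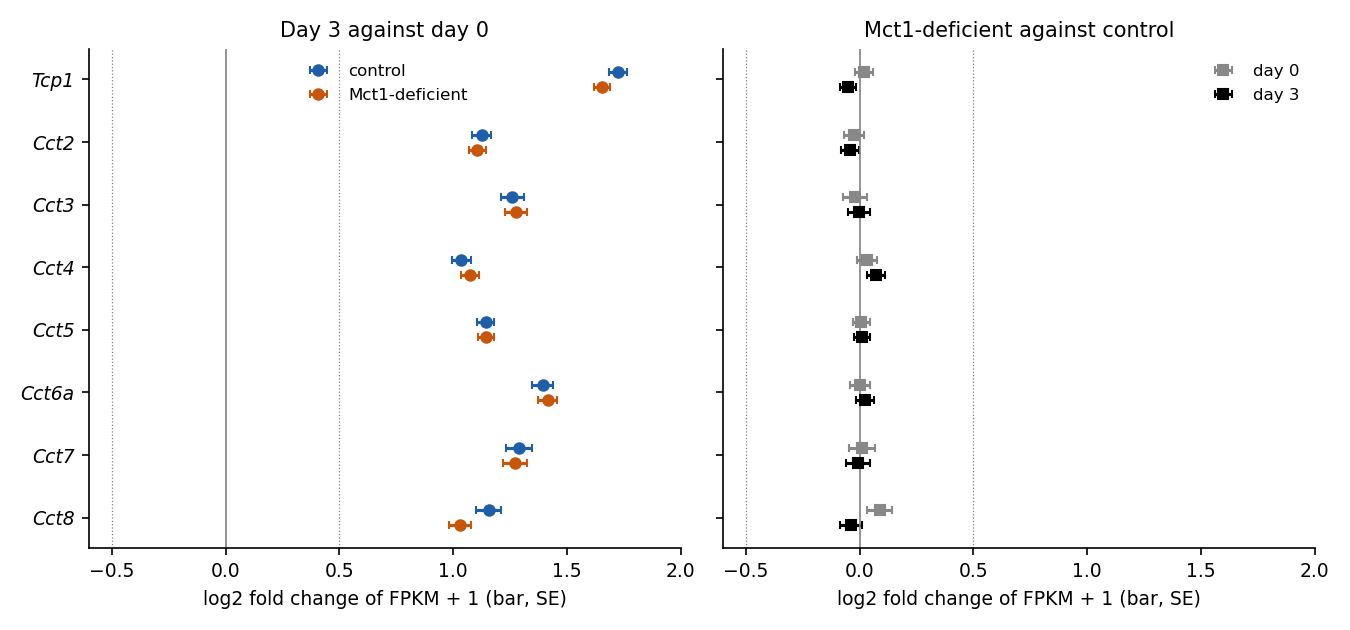
Log2 fold change of FPKM + 1 of each CCT subunit, with the SE as a bar, for day 3 against day 0 in each genotype (left) and for *Mct1*-deficient against control B cells on each day (right). Dotted lines mark the limit of 0.5, which the activation changes of 1.03 to 1.73 exceed and the genotype differences of -0.05 to 0.09 do not reach.

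The genes that work with CCT were described by lists. Prefoldin, which hands unfolded actin and tubulin to CCT, has 6 subunits, of which 3 were called higher and 1 lower in activated control B cells, where 24.8% of all tested genes were called higher and 33.0% lower. These shares of all tested genes were 19.2% and 40.8% when the libraries were scaled to a common total, 31.7% and 25.5% with median-of-ratios scaling and 28.8% and 27.3% after quantile normalization, and the counts of each list are to be read against them. *Pfdn6* (0.62) was not called at a common total (0.43), and *Pfdn2* (0.38) was called higher with median-of-ratios scaling (0.58). *Pfdn4* went from 11.81 and 11.15 FPKM to 32.00 and 29.25 FPKM, a log2 change of 1.34 ± 0.07, and *Pfdn1* changed by 1.25 ± 0.10. *Pfdn5*, the most abundant, went the other way, from 228.97 and 225.87 FPKM to 164.80 and 149.08 FPKM (-0.53 ± 0.07), which did not pass the limit with median-of-ratios scaling (-0.32) or without the second activated control library (-0.46). The prefoldin genes therefore did not move as 1 group, and their median was 0.50 against 1.21 for CCT.

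Of the phosducin-like cofactors of CCT, *Pdcl3* was called higher in control B cells (0.57 ± 0.08) but not when libraries were scaled to the same total (0.38). *Txndc9*, the most abundant of them, changed by 0.49 ± 0.06, just under the limit, and *Pdcl* by 0.18 ± 0.06. *Txndc9* was called higher with median-of-ratios scaling (0.70) and without the second activated control library (0.58). *Pdcl2* was not analysed here. The chaperonin-like genes *Mkks*, *Bbs10* and *Bbs12*, which belong to the Bardet-Biedl syndrome proteins and assist assembly of the BBSome, were at 0.98 to 5.26 FPKM in all libraries, and 0 of 3 were called, but after quantile normalization *Bbs10* (0.55) and *Bbs12* (0.78) were called higher in activated control B cells and *Bbs10* (0.66) in *Mct1*-deficient B cells. *Cct6b*, the testis form of subunit 6, was at most at 0.39 FPKM in any library and was not tested.

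Among the substrates, 8 of the 13 tested actin and tubulin genes were called higher and 0 lower in activated control B cells, against 24.8% and 33.0% of all tested genes. At a common total the counts were 8 and 2, the latter *Actb* and *Tubb2a* (-0.50). *Tuba1b*, an alpha tubulin, went from 324.54 and 330.68 FPKM to 1050.49 and 1025.74 FPKM (1.66 ± 0.04), and *Tubb5*, a beta tubulin, from 202.57 and 205.11 FPKM to 559.28 and 563.99 FPKM (1.46 ± 0.04). Both are of the size of the CCT changes. *Tubb6*, also among the 8, rose by 0.75 ± 0.25. It was not called without the second naïve control library (0.24). Without the first activated control library its change was 0.73, but it missed the p threshold. *Actb*, cytoplasmic beta actin and the most abundant of the list, was at 2768.62 and 2965.61 FPKM on day 0 and at 2287.77 and 2236.56 FPKM on day 3, a change of -0.34 ± 0.06 that did not pass the fold limit, but did with scaling to the same total (-0.54) and quantile normalization (-0.75).

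Between the genotypes on day 3, 2.42% of all tested genes were called. With the fold limit dropped, 15.2% had an adjusted p under 0.05 (limma), several genes of the chaperone and substrate lists among them. The single gene called in these lists was *Tubb6*, a further beta tubulin. It was at 10.42 and 10.20 FPKM in control and at 5.17, 5.40 and 5.65 FPKM in *Mct1*-deficient libraries, with no overlap (-0.82 ± 0.22, limma, adjusted p = 0.0324), and it was not called after quantile normalization (-0.77) or when any 1 of the 5 libraries of day 3 was left out (adjusted p from 0.0748 to 0.162). On day 0 its control libraries were far apart, at 8.55 and 3.75 FPKM.

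The 12 other substrates included 5 that were called higher and 1 called lower in activated control B cells, or 8 and 0 with median-of-ratios scaling and 4 and 2 at a common total. The shares of all tested genes were 24.8% and 33.0%, and 31.7% and 25.5%, and 19.2% and 40.8%, in the same order. *Plk1*, a mitotic kinase, went from 7.25 and 7.36 FPKM to 67.15 and 70.68 FPKM (3.07 ± 0.05), and *Cdc20* from 6.83 and 8.65 FPKM to 61.23 and 58.55 FPKM (2.81 ± 0.09). *Gnb2*, a G protein beta subunit and the most abundant of the list, fell by 0.51 ± 0.04 on the log2 scale, and did not pass the limit with median-of-ratios scaling (-0.30) or without the second naïve control library (-0.48). Of the 6 tubulin folding cofactors, which take tubulin over after CCT, *Tbcd* (0.63 ± 0.06) and *Arl2* (0.57 ± 0.10) were called higher, neither of them at a common total, where *Tbcc* was called lower (-0.61), and *Arl2* not without the second naïve (0.43) or the first activated control library (0.497), and *Tbca*, the most abundant, had a change of -0.02 ± 0.08.

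In the cytosolic HSP70 and HSP90 system, 14 of 24 tested genes were called higher and 2 lower in activated control B cells, with a median of 0.67, against 24.8% and 33.0% of all tested genes. The counts were 13 and 1 after quantile normalization, 17 and 2 with median-of-ratios scaling and 11 and 3 at a common total, where 28.8% and 27.3%, 31.7% and 25.5%, and 19.2% and 40.8% of all tested genes were called. *Bag2*, a co-chaperone of HSP70, changed by 1.76 ± 0.15 from a low level of 2.37 and 1.38 FPKM, and *Hsp90ab1*, the constitutive cytosolic HSP90, went from 645.62 and 646.69 FPKM to 1851.82 and 1836.38 FPKM (1.51 ± 0.04). *Hspa8*, the constitutive HSP70 and the most abundant of the list, rose by 1.11 ± 0.05, while the inducible *Hspa1b* was at 1.51 and 1.42 FPKM on day 0 and at 1.17 and 1.39 FPKM on day 3. *Hspa1a*, a further HSP70 gene of the list, was at 0.40 and 0.74 FPKM and then at 1.13 and 1.07 FPKM in control libraries. In *Mct1*-deficient libraries it was at 1.06 and 0.96 FPKM and then at 0.83, 0.63 and 0.97 FPKM. Its mean was below the filter, so it was not tested. The genes called lower were *Fkbp5* (-0.87 ± 0.12), an HSP90 co-chaperone, and *Hspa4l* (-0.86 ± 0.08), an HSP110 family member, the latter not after quantile normalization (-0.49).

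Of the 7 mitochondrial chaperones, 5 were called higher and 0 lower in activated control B cells, against 24.8% and 33.0% of all tested genes. At a common total 3 were called higher, without *Trap1* (0.33) and *Grpel1* (0.46), and after quantile normalization 4, without *Trap1* (0.43), which was also not called without the first activated control library (0.496). *Hspa9*, the mitochondrial HSP70, went from 63.18 and 56.82 FPKM to 245.13 and 244.31 FPKM (2.01 ± 0.05), and *Hspd1*, the mitochondrial chaperonin of the other structural group, from 68.18 and 61.99 FPKM to 217.41 and 229.09 FPKM (1.76 ± 0.06). *Hspe1*, the co-chaperonin that caps it and the most abundant of the list, rose by 1.65 ± 0.06. All 3 exceeded the CCT median of 1.21.

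The regulators of chaperone genes had smaller changes. *Hsf1*, the heat shock transcription factor, was at 47.22 and 53.09 FPKM on day 0 and at 31.00 and 31.91 FPKM on day 3 (-0.65 ± 0.06), *Hsf2* changed by 0.52 ± 0.07 and *Myc* by 0.65 ± 0.07. *Hsf1* did not pass the limit with median-of-ratios scaling (-0.45), *Hsf2* did not when scaled to the same total (0.35) or without the second activated control library (0.49), and *Myc* did not under that scaling (0.45) or after quantile normalization (0.495).

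The 14 listed subunits of the proteasome core, another ring complex, formed the list most like CCT. All 14 were called higher in both genotypes, against 24.8% of all tested genes in control and 23.4% in *Mct1*-deficient B cells. Their median log2 change was 1.24 in control and 1.18 in *Mct1*-deficient B cells. Between the genotypes on day 3, 0 of 14 were called. This count lay near the share of all tested genes called there, 2.42%. The changes in control B cells went from 0.93 to 1.59, with *Psmb7* (1.59 ± 0.05) and *Psmb2* (1.47 ± 0.07) the largest, and *Psmb1* was the most abundant. The range of 1.04 to 1.73 of the CCT subunits overlaps this range, so a rise of this size was not particular to CCT.

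**Figure D4:**
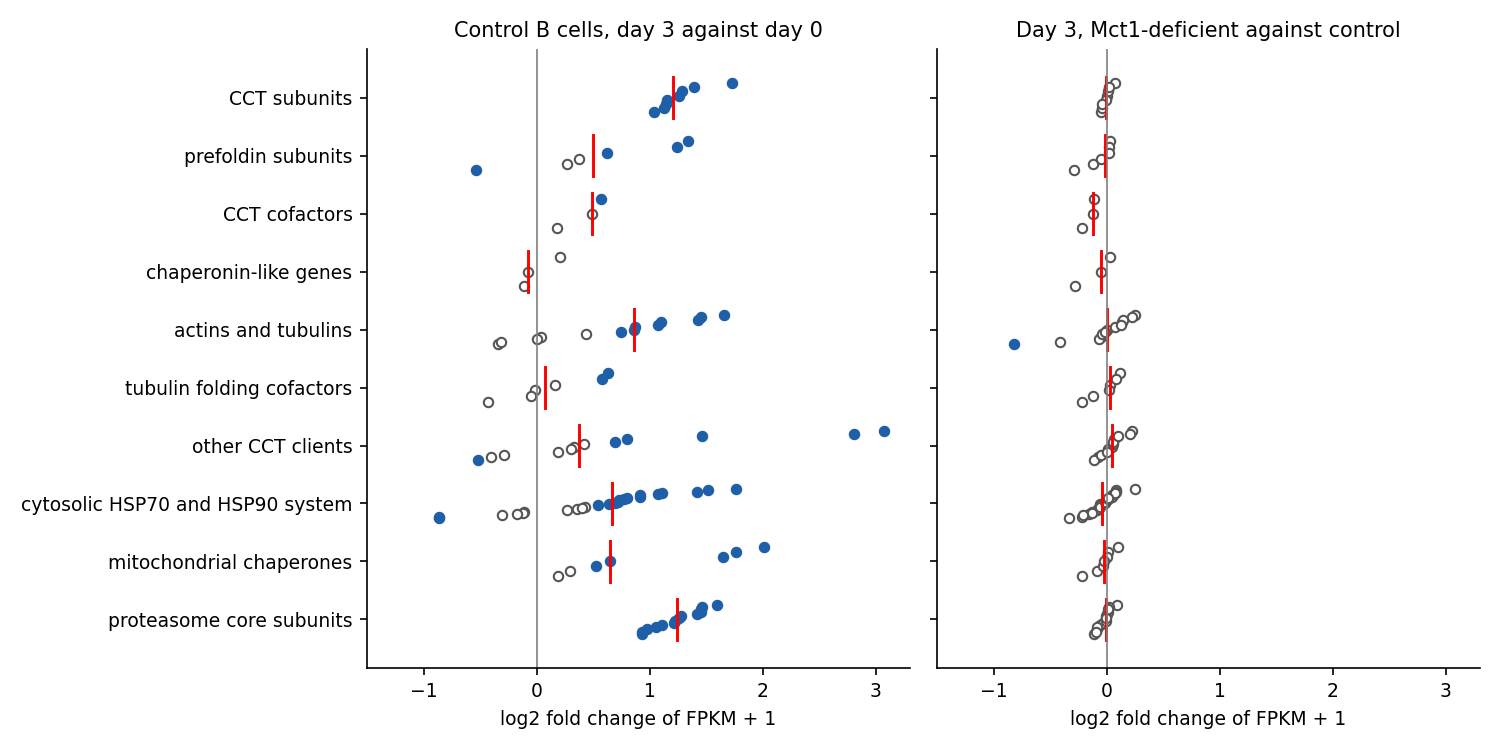
Log2 fold change of FPKM + 1 of each tested gene of 10 lists in activated against naïve control B cells (left) and in *Mct1*-deficient against control B cells on day 3 (right), with filled points for called genes, open points for others and red lines for list medians. CCT and proteasome core subunits are all filled on the left, with medians of 1.21 and 1.24. *Tubb6* is the single filled point on the right, where 2.42% of all tested genes were called.

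The genes most like CCT were found by Pearson's r over the 9 libraries between log2(FPKM + 1) and the mean of the 8 members. They were *Mcm5* and *Mcm4*, subunits of the replicative helicase, *Fignl1*, which acts in homologous recombination, *Nek2*, a centrosomal kinase, and *Lig1*, the DNA ligase of replication, with r from 0.9996 to 0.9998. The members themselves had r from 0.996 (*Cct8*) to 0.9996 (*Cct6a*) with the mean of the other 7. The libraries fall into 2 clusters by day, so r describes mainly the step between days, and 1168 of 10815 other tested genes (10.8%) had an r of at least 0.99. In control B cells their log2 changes went from 1.70 (*Mcm4*), within the CCT range, to 2.56 (*Nek2*).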

How the data were processed

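The authors deposited FPKM values for 17596 genes in 9 libraries, with 2 decimals. Per the labels and the paper, the sequencing institute assembled and analysed the data, and the submitters' processing notes name Bowtie2 and GRCm38. The quantifier and its strand and multi-mapping rules are not given in the sources used here. Without counts in the FPKM, sequencing depth could not be read, and precision rests on 2 or 3 libraries per group.

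Values were used as deposited, as log2(FPKM + 1), which understates changes of low genes. The 10823 genes whose mean over the libraries reached 1 FPKM, all 8 members among them, entered a limma fit (version 3.58.1, R 4.3.3) with 4 group means, a trend and Benjamini-Hochberg adjustment over all tested genes. Calls needed an adjusted p under 0.05 and a log2 change above 0.5. The labels do not say that libraries came from separate mice, so p-values measure the spread between these libraries. Figures and levels used Python 3.11.15, pandas 2.3.3 and matplotlib 3.10.9.

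The members, gene lists and the rule for named genes (the members, *Slc16a1*, in each list the 2 called genes that rose and the 2 that fell most, the most abundant gene and genes called between genotypes on day 3, and the 5 genes most like the members) were chosen with earlier results of these data known. *Hspa1b*, *Pdcl*, *Cct6b*, *Bbs10*, *Bbs12*, *Trap1*, *Grpel1*, *Pfdn2*, *Pfdn6*, *Tubb2a*, *Tbcc*, *Kdm5d*, *Hbb-bt*, *Mrpl18* and *Psph* were added with their values in view. So were *Hspa1a*, *Uty*, *Acat3*, *Pradc1* and *Usp16*. A further B cell marker is not reported here. The fit was tested on simulated data with 200 changed genes among 10823, and for the genotypes on day 3 it recovered 96% of those changed by 0.75 and 99% of those changed by 1.5 (log2), with 3 false calls. For the interaction it recovered 84% and 97%. The changes were put into the *Mct1*-deficient libraries of day 3, and all groups otherwise had the same mean, with independent normal spread. The simulation thus held no difference between the days and no deviation common to a library, so these rates need not hold for the real libraries. Alternatives were pseudocounts of 0.1 and 5, filters, 3 scalings, a replicate block, no trend, other fold limits and each library left out.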

Additional observations from a re-analysis of the deposited data

Results flagged for a closer look

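No CCT subunit was picked out by a comparison of genotype effects between the days. Among the 120 tested genes made up of *Slc16a1* and the lists other than the sex-linked one, 12 (10.0%) had a genotype effect that differed between day 3 and day 0 at an adjusted p under 0.05 by the interaction test (limma, adjusted over all tested genes), and 4 (3.33%) also exceeded the fold limit of 0.5. Over all tested genes these shares were 9.42% and 3.23%, so the listed genes lay near the background, and the values below say nothing particular of them. *Slc16a1* had an interaction of -1.06 on the log2 scale (adjusted p = 4.24e-04), *Lyz2*, a myeloid lysozyme, of 0.57 (adjusted p = 0.0466), *Adgre1*, a macrophage receptor, of 0.51 (adjusted p = 0.0289), and *Hba-a1*, an alpha globin, of -0.91 (adjusted p = 0.00410). Below the fold limit were *Cd22* (0.41, adjusted p = 0.00319), *Dnajb6* (-0.38, 0.00946), *Chordc1* (-0.38, 0.0173), *Hspa9* (-0.30, 0.0226), *Tuba1a* (0.26, 0.0325), *Pax5* (0.25, 0.0426), *Ncr1* (0.44, 0.0443) and *Actb* (0.28, 0.0455). The interaction of *Lyz2* did not pass the threshold when any 1 of 6 of the 9 libraries was left out (adjusted p from 0.0752 to 0.158), and that of *Adgre1* likewise (0.0517 to 0.109). On day 3 *Lyz2* was at 11.48 and 10.04 FPKM in control and at 16.78, 17.60 and 20.36 FPKM in *Mct1*-deficient libraries, and *Adgre1* at 0.44 and 0.58 FPKM and at 1.5, 1.37 and 1.39 FPKM, the 2 genes of the marker lists called between genotypes on day 3. No test for an outlying library within a group was run, since each group holds 2 or 3 libraries.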

How the results depend on the processing

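All 8 subunits were called higher in both genotypes, and 0 of 8 between genotypes on either day or by the interaction, under each alternative, the replicate block among them (8 and 8). The interaction needs all 4 groups, so the fit on only the groups compared was not run for it. Same-numbered libraries deviated together with r of -0.12 between the days in control, 0.05 and 0.06 in *Mct1*-deficient cells and -0.07 to -0.05 between genotypes. These values show no common deviation by number. They cannot tell whether same-numbered libraries came from the same mouse or preparation, which the labels do not say. With the control numbers crossed between days, 2687 genes were called higher and 3577 lower in control B cells, against 2687 and 3574 with the replicate block as numbered and 2687 and 3571 with no block. The summed FPKM ratio of day 3 to day 0 moved to 2.11 in both genotypes when scaled to the same total and to 2.81 (control) and 2.79 (*Mct1*-deficient) with median-of-ratios scaling, which moved the genotype ratio on day 3 to 1.01. Differences near 0 between genotypes on day 3 changed sign. *Cct3* became 0.011, 0.017 and 0.027 and *Cct7* 0.0053, 0.012 and 0.0089 with total scaling, median-of-ratios scaling and quantile normalization, and *Cct5* became -0.056 with the last. Leaving out each library in turn gave -0.022 to 0.019 for *Cct3*, -0.015 to 0.034 for *Cct5*, -0.027 to 0.0094 for *Cct7* and, for *Slc16a1* on day 0, -0.13 to 0.024. The cause was not tested.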
